A study of Mus musculus with 8 samples.

Results

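Lipid droplet and triglyceride storage genes were followed in mouse liver RNA-seq as a list of 10 genes named for their roles in coating droplets, taking up fatty acids, making triglyceride and breaking it down. The 10 were *Plin2*, *Plin4*, *Plin5*, *Cidea*, *Cidec*, *Cd36*, *G0s2*, *Pnpla2*, *Pnpla3* and *Dgat2*. They were listed by name, but with earlier results of these data known, so the list is not independent of the data. Of these, 9 had a row among the 19267 genes of the count table, and *Cidea* was not analysed here. The low-count filter passed 13993 genes, among them 8 of the 9, and *Pnpla3* did not pass.

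Hepatocytes store surplus fatty acid as triglyceride in lipid droplets, which are oil cores enclosed by a phospholipid layer and coat proteins. Perilipins such as PLIN2 and PLIN5 cover the droplet and limit the access of lipases, CIDE proteins move oil from small droplets to large ones, and DGAT2 joins the last fatty acid to diacylglycerol. PNPLA2 (adipose triglyceride lipase, ATGL) starts lipolysis and G0S2 is its protein inhibitor, so the droplet content of a liver cell depends on both sides. Droplets that build up in the liver, called steatosis, are an early feature of alcohol-related liver disease.

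The livers came from C57BL/6 males that were 9 weeks old at sampling. They were either wild type (WT, which per the study's methods carry Cre) or Elf4fl/fl-Villin-Cre (written Elf4-/-). The Villin promoter drives Cre in the intestinal epithelium, so that the deletion of *Elf4*, the gene of an ETS family transcription factor, is meant for the gut and not for the liver that was sequenced. From 6 weeks of age mice of both genotypes were pair-fed for 21 days. They received either a Lieber-DeCarli liquid diet in which alcohol was present at 5% (w/v), named EtOH, or one in which maltose dextrin supplied the same calories, named Control. This gave 4 groups of 2 libraries each, called WT-Control and WT-EtOH for wild type and Elf4-/--Control and Elf4-/--EtOH for the knockout. The comparisons ask how droplet genes differed with alcohol, whether they differed with intestinal *Elf4*, and whether the diet effect differed between genotypes.

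Library totals ran from 6171051 to 9157362 counts. Values below are CPM (counts relative to the library total, scaled by TMM factors), which compare 1 gene between libraries, or CPM per kb of exon, which compare genes with each other. The sum of 6 hepatocyte markers ran from 40010 to 80255 CPM over the libraries. *Elf4* itself had 6 to 36 counts per library and the genotypes overlapped. The share of mitochondrial transcripts was 23.4% to 33.7% in WT-Control, 10.8% to 12.5% in WT-EtOH, 18.5% to 18.7% in Elf4-/--Control and 18.3% to 22.1% in Elf4-/--EtOH, and its part in the results was not tested. The Elf4-/--EtOH libraries stood further apart from each other than those of any other group, with an SD of the log2 difference between replicates of 0.68 over 9398 genes against 0.35 to 0.50 in the other groups. In RNA of whole tissue, fewer cells of a type and less RNA per cell cannot be told apart.

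The promoters of the 5 genes that rose with alcohol in WT are shown because these genes carry the result, though counts per gene do not tell which start site was used. Each run is the 250 bases before the RefSeq start site on GRCm38.p6 (the assembly of mm10; for *Plin5* the first of its 2 windows), 5′ to 3′ on the strand of the gene, in lower case. Capitals mark the best match, with up to 2 mismatches, to a direct repeat of AGGTCA spaced by 1 base, the kind of element that PPAR and RXR nuclear receptors are known to bind.
Plin2 (chr4:86670060-86670309, minus strand): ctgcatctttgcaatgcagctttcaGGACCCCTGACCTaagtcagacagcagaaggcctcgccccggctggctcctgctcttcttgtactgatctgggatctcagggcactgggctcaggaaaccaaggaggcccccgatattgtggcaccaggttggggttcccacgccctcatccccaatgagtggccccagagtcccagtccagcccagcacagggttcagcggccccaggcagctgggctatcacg
Plin4 (chr17:56109783-56110032, minus strand): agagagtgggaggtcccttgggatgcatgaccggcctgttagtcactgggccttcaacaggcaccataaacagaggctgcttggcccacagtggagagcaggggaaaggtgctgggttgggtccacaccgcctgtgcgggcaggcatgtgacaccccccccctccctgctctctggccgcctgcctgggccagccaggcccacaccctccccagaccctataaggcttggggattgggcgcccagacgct
Plin5 (chr17:56117549-56117798, minus strand): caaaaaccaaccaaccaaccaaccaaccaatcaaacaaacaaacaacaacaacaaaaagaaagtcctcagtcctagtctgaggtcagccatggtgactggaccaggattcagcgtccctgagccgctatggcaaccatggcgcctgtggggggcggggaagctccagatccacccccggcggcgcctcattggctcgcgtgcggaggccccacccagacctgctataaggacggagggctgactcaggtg
Cd36 (chr5:17835897-17836146, minus strand): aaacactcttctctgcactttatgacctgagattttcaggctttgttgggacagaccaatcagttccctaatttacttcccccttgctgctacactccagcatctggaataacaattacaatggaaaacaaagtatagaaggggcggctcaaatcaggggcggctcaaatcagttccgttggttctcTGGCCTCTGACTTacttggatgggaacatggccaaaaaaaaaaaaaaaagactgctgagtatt
G0s2 (chr1:193273189-193273438, minus strand): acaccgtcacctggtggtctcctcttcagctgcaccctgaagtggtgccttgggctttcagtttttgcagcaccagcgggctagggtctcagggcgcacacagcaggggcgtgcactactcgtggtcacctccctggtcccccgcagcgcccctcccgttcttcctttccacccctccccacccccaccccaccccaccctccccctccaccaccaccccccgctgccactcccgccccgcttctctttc

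RefSeq windows running from 250 bases before to 50 bases after a start site were found for 8 of the 9 genes, in 10 windows. There was none for *Dgat2*. The near match to the repeat was present in the windows of *Plin2* and *Cd36* alone, in both on the minus strand of the window, with 2 mismatches each, beginning at position -225 in *Plin2* and -63 in *Cd36* relative to the start site. It was held by 3.86% of the 32851 windows of all genes. No window of the 10 had the exact repeat, which 0.04% of all windows had. The single AGGTCA on either strand, which lies within the *Plin2* match, was found in the windows of *Plin2*, *Cd36* and *Plin5* and in 16.3% of all windows. CACGTG, an E-box that reads the same on both strands, was found in *Plin2* at position -4 and in 7.15% of all windows. TATAAA was in none of the 10 windows and in 13.6% of all, GGGCGG in 7 of 10 and 35.7% of all, and CCAAT in 5 of 10 and 37.4% of all, on either strand. These matches describe letters in a window and say nothing of binding. The *Cd36* window lay inside the GENCODE span of the gene (chr5:17781690-17888801), which extends further upstream to other start sites.

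In WT liver 3 perilipin genes, the fatty acid carrier gene *Cd36* and the lipase inhibitor gene *G0s2* were higher with alcohol. Of the 8 genes tested, 5 were higher in WT-EtOH than in WT-Control at an adjusted p under 0.05 (quasi-likelihood test of edgeR, adjusted by Benjamini-Hochberg across all genes), namely *Plin2*, *Plin4*, *Plin5*, *Cd36* and *G0s2*, and none was lower. Over all genes 21.6% passed in either direction in this comparison and 10.8% were higher. In Elf4-/- mice the same diet comparison passed for *Plin2* and *Cd36*, 2 of 8, beside 2.89% of all genes in either direction and 1.71% higher. With the diet effect averaged over genotypes, the 5 genes called in WT passed again, beside 28.0% of all genes in either direction and 14.1% higher. The median log2 fold change of the 8 genes was 1.39 in WT, 0.78 in Elf4-/- and 1.09 on average, while the median of all genes was 0.01 in each. The values of each library are in the plot of CPM by gene.

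**Figure D1:**
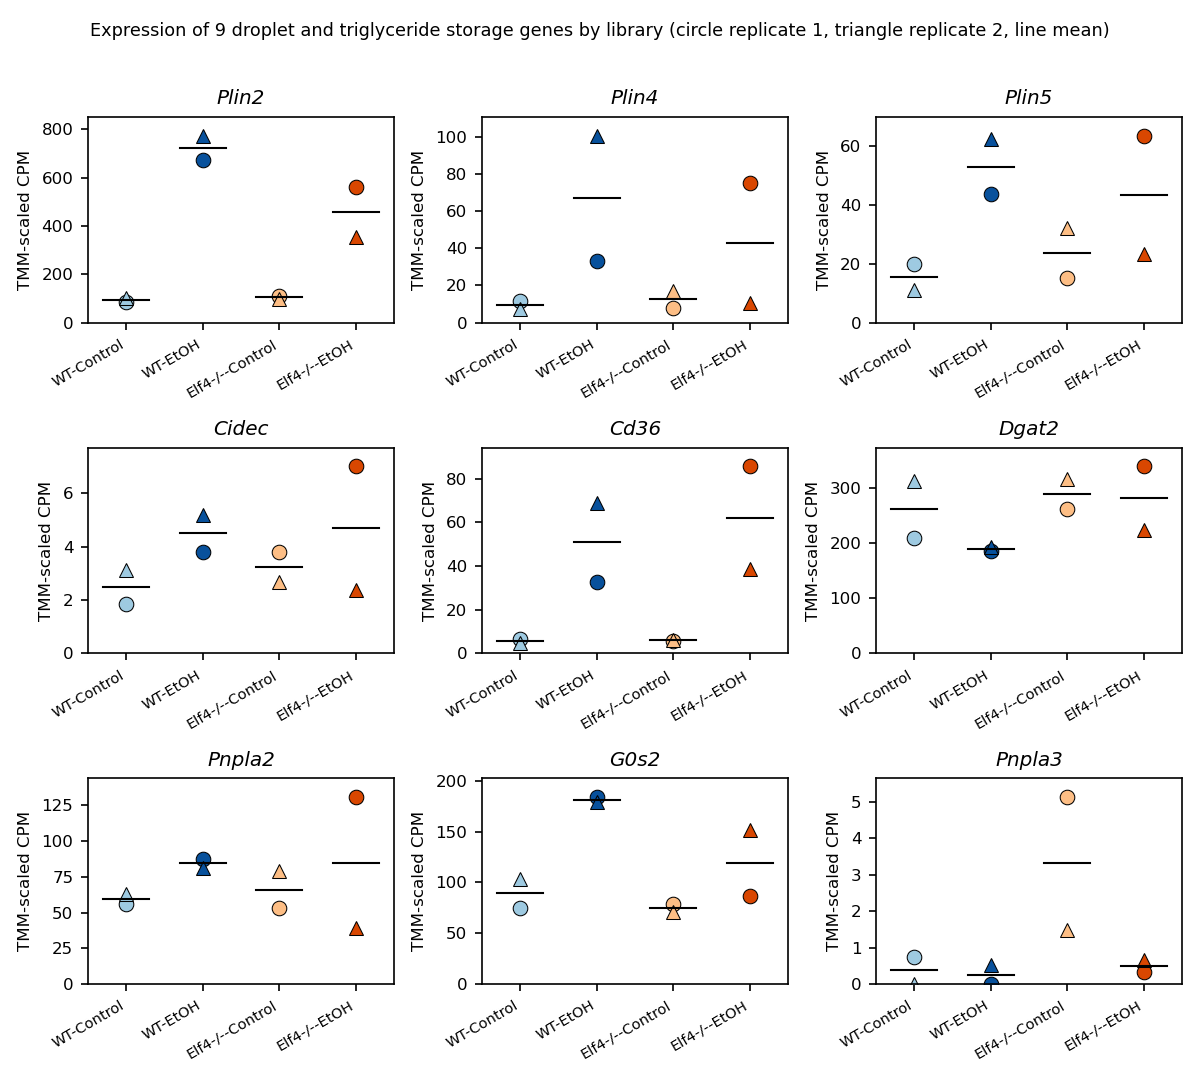
TMM-scaled CPM (vertical axis, linear from 0, a separate scale for each gene) of 9 genes in the 4 groups, with a circle for replicate 1, a triangle for replicate 2 and a line at the group mean. *Plin2* and *Cd36* were higher in all 4 EtOH libraries than in all 4 Control libraries, and the Elf4-/--EtOH libraries were far apart for *Plin4*, at 75.2 and 10.7 CPM.

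*Plin2* (chr4:86648386-86670060, minus strand) encodes the perilipin that coats most droplets of the liver cell. Its level was 83.5 and 103 CPM in WT-Control, 673 and 774 CPM in WT-EtOH, 110 and 98.9 CPM in Elf4-/--Control and 560 and 355 CPM in Elf4-/--EtOH. Every EtOH library was above every Control library, and both Elf4-/--EtOH libraries were below both WT-EtOH libraries. The log2 fold change with alcohol was 2.96 ± 0.28 (SE) in WT, or 7.76-fold, with an edgeR adjusted p of 0.000802. In Elf4-/- it was 2.13 ± 0.27, or 4.38-fold, with an edgeR adjusted p of 0.00972.

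Another coat protein, PLIN4, is encoded by *Plin4* (chr17:56100591-56109803, minus strand), a perilipin best known from muscle and adipose tissue that binds small new droplets. It was measured at 11.4 and 7.18 CPM in WT-Control, 33.1 and 101 CPM in WT-EtOH, 7.99 and 17.0 CPM in Elf4-/--Control and 75.2 and 10.7 CPM in Elf4-/--EtOH. The WT groups did not overlap, whereas Elf4-/--EtOH replicate 2 lay within the range of its Control group. The rise in WT was 2.85 ± 0.83 (log2, SE; 7.22-fold, edgeR adjusted p 0.0367), with 3.44 without WT-EtOH replicate 1 and 1.82 without replicate 2, and the value in Elf4-/- was 1.79 ± 0.79 (edgeR adjusted p 0.226). The gene shares 17 exonic bases with *Hdgfl2* on the opposite strand, and whether reads were counted by strand is not given in the sources used here.

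*Plin5* (chr17:56111601-56117596, minus strand) lies next to *Plin4* and encodes the perilipin that links droplets to mitochondria in tissues that oxidize fat. Its level was 20.0 and 11.2 CPM in WT-Control, 43.6 and 62.3 CPM in WT-EtOH, 15.1 and 32.1 CPM in Elf4-/--Control and 63.4 and 23.4 CPM in Elf4-/--EtOH. The pattern followed that of *Plin4*, with separate WT groups and overlapping Elf4-/- groups. Across the 8 libraries the centred log2 CPM of both genes had a Pearson r of 0.96, given as a description. *Plin5* rose by 1.77 ± 0.50 on the log2 scale in WT (3.40-fold, edgeR adjusted p 0.0334) and its value in Elf4-/- was 0.89 ± 0.48 (edgeR adjusted p 0.316).

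*Cidec* (chr6:113424634-113435760, minus strand) encodes the droplet fusion protein CIDEC, also known as FSP27. It was the lowest of the tested genes, with 10 to 51 counts per library, which limits the precision of its ratios. The level was 1.86 and 3.13 CPM in WT-Control, 3.79 and 5.20 CPM in WT-EtOH, 3.79 and 2.69 CPM in Elf4-/--Control and 7.01 and 2.39 CPM in Elf4-/--EtOH. Values with alcohol were 0.85 ± 0.57 (log2, SE) in WT and 0.50 ± 0.54 in Elf4-/-, and neither passed the test (edgeR adjusted p 0.307 and 0.631). The WT groups did not overlap. Here and for the other members, the share of all genes without overlap between diets was not counted. Between genotypes that share was 41.3% under EtOH and 38.5% under Control, so a lack of overlap alone does not show a change. Those shares do not stand for the diet comparisons, in which more of all genes passed the test.

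The make-up of the perilipin transcripts also differed between diets, which does not measure the protein coat of droplets. Per kb of exon, the sum of *Plin2*, *Plin3*, *Plin4* and *Plin5* was 40.4 and 39.5 CPM in WT-Control, 223 and 271 CPM in WT-EtOH, 45.5 and 51.6 CPM in Elf4-/--Control and 211 and 117 CPM in Elf4-/--EtOH. *Plin2* made up 54.6% to 74.1% of this sum in the 4 Control libraries and 75.7% to 86.2% in the 4 EtOH libraries. *Plin3*, the perilipin that most cells make, was 16.4 ± 4.0 CPM (SD, n = 2) in WT-Control and 15.9 ± 3.2 CPM in WT-EtOH, a log2 difference of -0.05 ± 0.38 (SE; edgeR adjusted p 0.943). The split of the sum was looked at after the values were seen and was given no test.

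**Figure D2:**
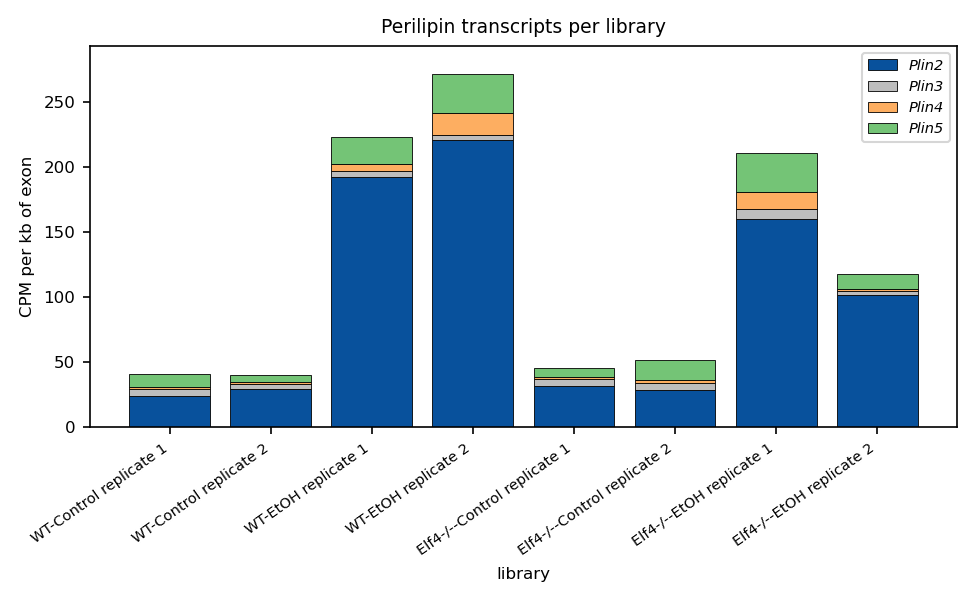
CPM per kb of exon (vertical axis, from 0) of *Plin2*, *Plin3*, *Plin4* and *Plin5*, stacked as 1 bar for each of the 8 libraries. The *Plin2* share was 54.6% to 74.1% in Control and 75.7% to 86.2% in EtOH libraries, and the sum of Elf4-/--EtOH replicate 2, at 117 CPM per kb, was the lowest among the EtOH libraries.

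*Cd36* (chr5:17781690-17888801, minus strand) encodes a scavenger receptor that carries long-chain fatty acids into the cell. Its level was 6.53 and 4.60 CPM in WT-Control, 32.7 and 69.0 CPM in WT-EtOH, 5.64 and 6.27 CPM in Elf4-/--Control and 85.8 and 38.7 CPM in Elf4-/--EtOH. The diet groups were far apart in both genotypes and the EtOH groups overlapped between genotypes. The log2 fold change was 3.19 ± 0.47 (SE) in WT (9.15-fold, edgeR adjusted p 0.00299), or 2.54 when replicate 2 of WT-EtOH was left out. In Elf4-/- it was 3.39 ± 0.46 (10.4-fold, edgeR adjusted p 0.00972), the highest fold change among the members in that comparison, and 2.71 without Elf4-/--EtOH replicate 1.

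CD36 is also made by macrophages and by endothelium, and the summed markers of these cells were higher with EtOH, more so in WT. All 8 Kupffer cell and macrophage markers were in the table, and their summed level was 188 to 255 CPM in WT-Control, 578 to 639 CPM in WT-EtOH, 175 to 181 CPM in Elf4-/--Control and 234 to 243 CPM in Elf4-/--EtOH. The 7 sinusoidal endothelium markers summed to 50.8 to 99.0, 286 to 341, 152 to 155 and 161 to 250 CPM in the same order of groups, and the 8 stellate cell markers to 38.8 to 100, 272 to 351, 97.6 to 163 and 231 to 369 CPM. The 6 hepatocyte markers summed to 59184 to 80255, 40010 to 45419, 70984 to 79568 and 46324 to 62489 CPM. The part of these cell types in the result was not tested. Of 10 adipocyte markers 5 had a row, and these summed to 102 to 132 CPM in WT-Control, 56.6 to 63.6 CPM in WT-EtOH, 86.2 to 92.9 CPM in Elf4-/--Control and 56.1 to 86.4 CPM in Elf4-/--EtOH. The counts per library were 104 to 565 for *Adrb3*, 107 to 228 for *Lipe* and 16 to 360 for *Fabp4*. They were 0 to 6 for *Cfd* and 0 to 5 for *Adig*. These markers did not move together. In WT *Adrb3* had 342 and 565 counts with Control and 104 and 113 with EtOH. *Fabp4* went the other way, with 49 and 16 against 193 and 360. Of 6 skeletal muscle markers only *Ckm* had a row, with 0 to 5 counts.

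On the lipolysis side the inhibitor gene *G0s2* passed the test in WT and the lipase gene *Pnpla2* did not, and the difference between them was not tested. *G0s2* (chr1:193272161-193273217, minus strand, within the span of *Lamb3* on the opposite strand but sharing no exonic base) was 74.8 and 104 CPM in WT-Control, 184 and 179 CPM in WT-EtOH, 78.4 and 70.7 CPM in Elf4-/--Control and 86.9 and 152 CPM in Elf4-/--EtOH. The diet groups did not overlap in either genotype, and both Elf4-/--EtOH libraries were below both WT-EtOH libraries. *G0s2* rose by 1.02 ± 0.28 on the log2 scale in WT (2.03-fold, edgeR adjusted p 0.0283), and its value in Elf4-/- was 0.68 ± 0.28 (edgeR adjusted p 0.196).

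*Pnpla2* (chr7:141455198-141460743, plus strand), the gene of ATGL, was 55.7 and 62.9 CPM in WT-Control, 87.2 and 81.5 CPM in WT-EtOH, 52.9 and 79.2 CPM in Elf4-/--Control and 131 and 38.9 CPM in Elf4-/--EtOH. The WT groups did not overlap, and the Elf4-/--EtOH libraries held both its highest and its lowest level. Its log2 difference with alcohol was 0.51 ± 0.44 (SE) in WT and 0.36 ± 0.44 in Elf4-/- (edgeR adjusted p 0.434 and 0.682). Per kb of exon, *G0s2* exceeded *Pnpla2* in every library, by 4.65 and 5.71 times in WT-Control, 7.32 and 7.61 times in WT-EtOH, 5.14 and 3.10 times in Elf4-/--Control and 2.30 and 13.5 times in Elf4-/--EtOH. Both ends of this range thus came from Elf4-/--EtOH. The ratio was formed after the values were seen and was given no test.

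*Pnpla3* (chr15:84167837-84187236, plus strand) encodes adiponutrin, a droplet protein related to ATGL whose human form is the best known risk gene of fatty liver. WT-Control libraries had 4 and 0 counts of it, WT-EtOH libraries 0 and 5, Elf4-/--Control libraries 50 and 10 and Elf4-/--EtOH libraries 2 and 5, so that Elf4-/--Control alone was above 5 counts. A count of 0 allows up to 3 counts at this depth. When all 19267 genes were tested with no filter, Elf4-/--Control exceeded WT-Control by 3.16 ± 1.13 (log2, SE; edgeR adjusted p 0.589), and EtOH against Control in Elf4-/- was -2.72 ± 1.04 (edgeR adjusted p 0.193). These values of *Pnpla3* were added after its counts were seen. The gene shares 105 exonic bases with *Gm49513*.

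*Dgat2* (chr7:99153658-99182719, minus strand), which encodes the acyltransferase of the final step of triglyceride synthesis, was the only tested member with a negative diet effect in both genotypes. Its level was 209 and 314 CPM in WT-Control, 187 and 194 CPM in WT-EtOH, 262 and 318 CPM in Elf4-/--Control and 340 and 225 CPM in Elf4-/--EtOH. The WT groups did not overlap, by a narrow margin. The log2 difference with alcohol was -0.46 ± 0.28 (SE) in WT and -0.04 ± 0.28 in Elf4-/-, and neither passed the test (edgeR adjusted p 0.262 and 0.955).

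**Figure D3:**
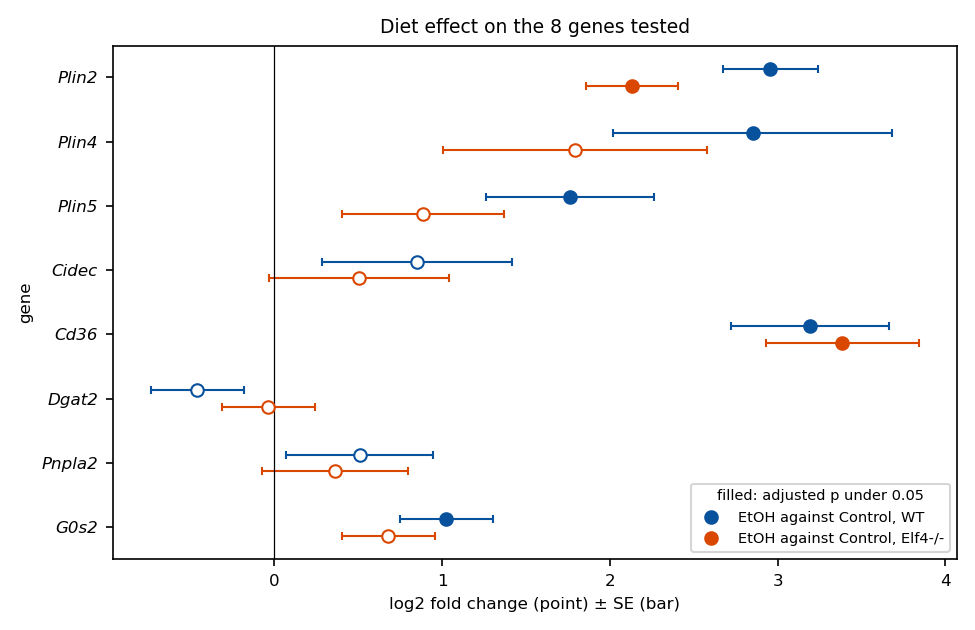
log2 fold change of EtOH against Control with its SE (horizontal axis) for the 8 tested genes, in WT (blue) and in Elf4-/- (orange), with filled points where the edgeR adjusted p was under 0.05. The filled points are *Plin2*, *Plin4*, *Plin5*, *Cd36* and *G0s2* in WT and *Plin2* and *Cd36* in Elf4-/-.

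The order of the levels per kb of exon changed with the diet. In WT-Control *G0s2* (102 ± 23 CPM per kb, SD, n = 2) and *Dgat2* (84.9 ± 24.1) led and did not differ beyond their spread, followed by *Plin2* (26.5 ± 3.9), *Pnpla2* (19.6 ± 1.7) and *Plin5* (7.47 ± 2.96). *Plin4* (1.61 ± 0.51), *Cd36* (1.55 ± 0.38) and *Cidec* (1.34 ± 0.48) lay together below these, and *Pnpla3* (0.241 ± 0.341) was last. In WT-EtOH *Plin2* (206 ± 20) stood level with *G0s2* (208 ± 4) and above *Dgat2* (61.8 ± 1.6). Below them *Pnpla2* (27.9 ± 1.3) and *Plin5* (25.4 ± 6.3) did not differ beyond their spread, nor did *Cd36* (14.2 ± 7.1) and *Plin4* (11.6 ± 8.3), and *Cidec* (2.42 ± 0.53) and *Pnpla3* (0.165 ± 0.233) came last. In Elf4-/--Control *Dgat2* (94.0 ± 12.8) and *G0s2* (85.6 ± 6.3) led again, followed by *Plin2* (29.8 ± 2.3), *Pnpla2* (21.9 ± 6.2) and *Plin5* (11.3 ± 5.8), with *Plin4* (2.16 ± 1.1), *Pnpla3* (2.14 ± 1.66), *Cidec* (1.74 ± 0.42) and *Cd36* (1.66 ± 0.12) together at the end. Elf4-/--EtOH had *G0s2* (137 ± 53) and *Plin2* (130 ± 41) level at the top and *Dgat2* (91.6 ± 26.5) within their spread. *Pnpla2* (28.1 ± 21.5), *Plin5* (20.8 ± 13.6), *Cd36* (17.3 ± 9.3) and *Plin4* (7.44 ± 7.89) did not differ beyond their spread in that group, and *Cidec* (2.53 ± 1.76) and *Pnpla3* (0.317 ± 0.157) were last. The 9 genes together took 0.0389% to 0.174% of the counts of a library.

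The calls rested on few libraries. In WT, *Plin2* and *Cd36* passed under each of the 16 alternatives, while the count of 5 fell to 2 without WT-Control replicate 1 or WT-EtOH replicate 2, and to 3 without WT-Control replicate 2, WT-EtOH replicate 1 or either Elf4-/--Control library. Over all genes the share called was 10.6% and 4.44% in the first 2 of these cases, and 12.7%, 6.82%, 15.8% and 15.9% in the other 4. The genes lost were among *Plin4*, *Plin5* and *G0s2*. In Elf4-/- the count of 2 fell to 0 without either Elf4-/--Control library, where 0.129% and 0.0286% of all genes passed. Without Elf4-/--EtOH replicate 2 it rose to 5, with *Plin4*, *Plin5* and *Pnpla2* added, where 11.9% of all genes passed. For the average diet effect the count of 5 fell to 3 without WT-Control replicate 2, WT-EtOH replicate 2 or Elf4-/--Control replicate 1, where 23.3%, 15.3% and 17.6% of all genes passed.

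No droplet gene differed between genotypes past the threshold, with alcohol or without. Under EtOH 0 of 8 passed, beside 0.143% of all genes. Under Control 0 of 8 passed, beside 0.0143%, and averaged over diets 0 of 8, beside 0.136%. DESeq2 also called 0 of 8 in each, beside 1.31%, 0.668% and 0.843% of all genes. At an unadjusted p under 0.05 the edgeR counts of members were 1, 0 and 0, beside 10.5%, 7.31% and 7.94% of all genes, and the 1 gene was *Plin2* under EtOH. By DESeq2 these counts were 3 (*Plin2*, *G0s2* and *Dgat2*), 0 and 1 (*G0s2*), beside 7.99%, 5.37% and 6.02% of all genes. The median log2 difference of the 8 genes was -0.14 under EtOH, 0.16 under Control and 0.11 averaged over diets.

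Under EtOH, 3 of the 8 genes did not overlap between genotypes, beside 41.3% of all genes, a share that 3 of 8 is near. *Plin2* was lower in Elf4-/- by a log2 difference of -0.66 ± 0.26 (SE; 95% interval -1.25 to -0.07; edgeR unadjusted p 0.0308, adjusted p 0.422), and moved to -1.03 when replicate 1 of Elf4-/--EtOH was left out and to -0.38 when replicate 2 was. The difference of *G0s2* was -0.60 ± 0.28 (95% interval -1.22 to 0.01; edgeR adjusted p 0.480), at -0.26 and -1.07 without the same libraries. That of *Dgat2* was 0.57 ± 0.28 (95% interval -0.05 to 1.19; edgeR adjusted p 0.510), at 0.24 and 0.83 without them. *Cd36* (0.28, 95% interval -0.59 to 1.16), *Pnpla2* (0.01, -0.97 to 0.98) and *Cidec* (0.04, -1.13 to 1.21) had wider intervals on the log2 scale around smaller values. For *Plin4* the value was -0.65 (-2.29 to 0.99) and for *Plin5* -0.29 (-1.34 to 0.75). Under Control none of the 8 tested genes was without overlap, beside 38.5% of all genes. Their log2 differences there ran from -0.26 (*G0s2*) to 0.58 (*Plin5*). *Pnpla3*, which did not pass the filter, did not overlap under Control. It was at 5.12 and 1.49 CPM in Elf4-/--Control against 0.746 and 0 CPM in WT-Control.

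Whether the diet effect differed between genotypes was tested by the interaction. It passed for 0 of 8 members by edgeR, beside 0% of all genes. DESeq2 called 0 of the 7 members it gave an adjusted p, beside 1.26% of all genes. At an unadjusted p under 0.05 there were 0 members by edgeR, beside 10.1% of all genes, and 1 by DESeq2, *Plin2* with an unadjusted p of 0.0358, beside 7.72% of all genes. The interaction of *Plin2* was -0.83 ± 0.37 (log2, SE; 95% interval -1.66 to 0.0046; edgeR unadjusted p 0.0511, adjusted p 0.497). That of *Plin4* was -1.06 ± 1.12, that of *Plin5* -0.88 ± 0.69 and that of *Cd36* 0.19 ± 0.64, with edgeR adjusted p of 0.798, 0.716 and 0.943. Calls in WT that were missed in Elf4-/-, such as those of *Plin4*, *Plin5* and *G0s2*, were therefore not shown to differ between genotypes.

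**Figure D4:**
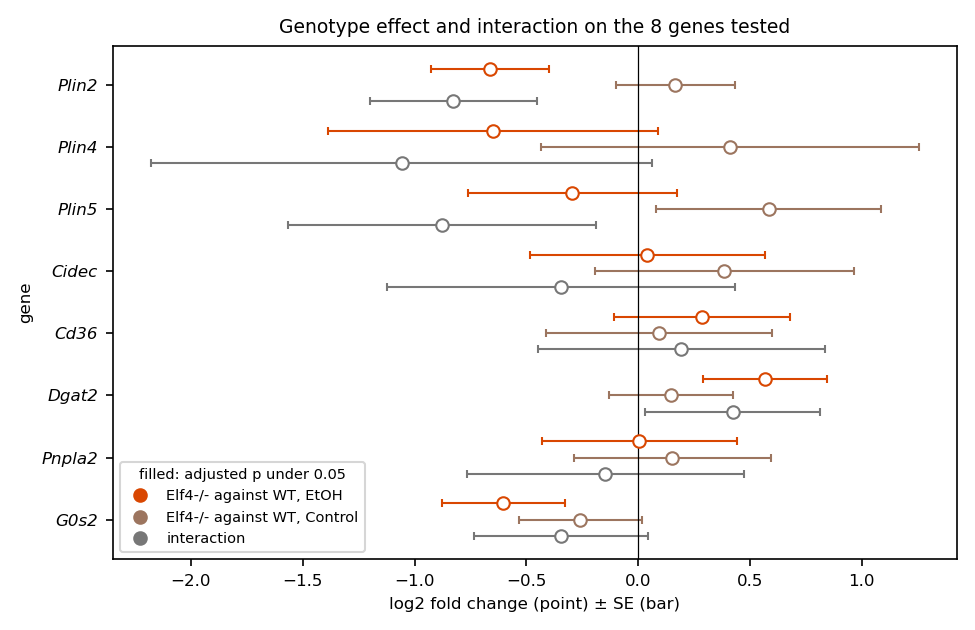
log2 difference with its SE (horizontal axis) of the 8 tested genes for Elf4-/- against WT under EtOH (orange), Elf4-/- against WT under Control (brown) and the interaction (grey), with open points where the edgeR adjusted p was not under 0.05. All points are open, and *Plin2* under EtOH lies at -0.66 and its interaction at -0.83.

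The libraries of the Elf4-/--EtOH group differed from each other in most of the 8 genes. Replicate 1 exceeded replicate 2 by 7.0 times for *Plin4*, 3.37 times for *Pnpla2*, 2.94 times for *Cidec*, 2.72 times for *Plin5* and 2.21 times for *Cd36*. *Plin2* and *Dgat2* differed less, by 1.58 and 1.51 times, and *G0s2* went the other way, at 0.572 times. The median absolute log2 difference between replicates over the 8 genes was 1.29 in this group against 0.53 in WT-Control, 0.32 in WT-EtOH and 0.37 in Elf4-/--Control. The diet effect in Elf4-/- also changed with the library left out. *Plin4* was -0.19 without replicate 1 and 2.60 without replicate 2, *Pnpla2* -0.76 and 0.97, and *Cidec* -0.45 and 1.07. *Plin2* (1.76 and 2.40) kept its direction and its call without either library.

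**Figure D5:**
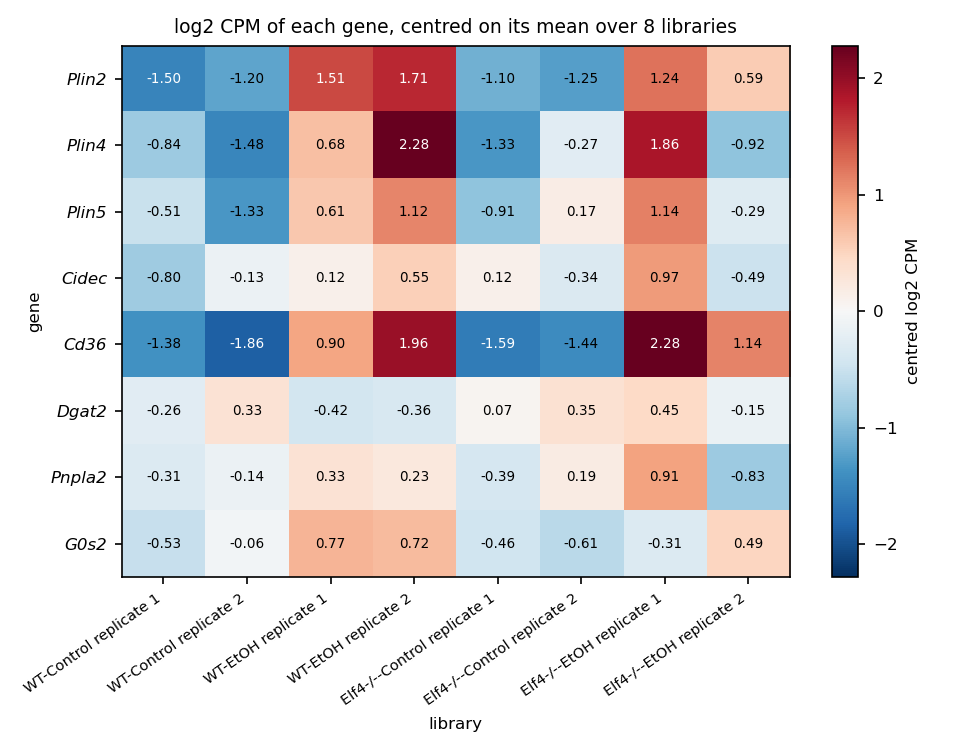
log2 CPM of the 8 tested genes (rows) in the 8 libraries (columns), centred on the mean of each gene, with red above and blue below the mean and the value printed in each cell. Elf4-/--EtOH replicate 1 is red for all genes but *G0s2*, at -0.31, whereas replicate 2 is red for *Plin2*, *Cd36* and *G0s2* only.

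Other genes of the droplet pathway were read from 6 lists of 82 genes, of which 79 were tested. In WT 16 were higher and 10 lower with alcohol, or 32.9% beside 21.6% of all genes, and in Elf4-/- 3 were higher and 1 lower, or 5.06% beside 2.89%. Averaged over genotypes 19 were higher and 11 lower, or 38.0% beside 28.0%, the share against which the counts of each list below are to be read. The median log2 difference of the 79 genes was 0.07 in WT, 0.05 in Elf4-/- and 0.03 on average, beside 0.01 for all genes in each. Between genotypes and in the interaction none of the 79 passed by edgeR. Genes below were the 2 past the threshold with the largest absolute log2 fold change in each list for the average diet effect, and any others were named after their values were seen.

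Droplet coat and biogenesis genes (11 tested) had 3 higher and 1 lower on average. *Hsd17b11*, which encodes a droplet-bound dehydrogenase, rose by 1.58 ± 0.19 on the log2 scale (edgeR adjusted p 0.000721), from 57.5 ± 22.8 CPM (SD, n = 2) in WT-Control to 234 ± 2 CPM in WT-EtOH and from 75.1 ± 4.3 CPM in Elf4-/--Control to 164 ± 6 CPM in Elf4-/--EtOH. *Fitm2*, whose product helps droplets bud from the endoplasmic reticulum, rose by 1.48 ± 0.17 (edgeR adjusted p 0.000650). *Cideb*, the CIDE protein of hepatocytes that also serves the loading of lipoproteins, was the gene that was lower (-0.60 ± 0.15, edgeR adjusted p 0.0168). The lower *Cideb* was most apparent in WT, from 203 ± 13 to 97.8 ± 19.9 CPM, and its interaction was 0.90 ± 0.31 (edgeR adjusted p 0.371).

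Fatty acid uptake, binding and activation genes (15 tested) had 6 higher and 2 lower. The binding protein genes *Fabp4* and *Fabp5* moved in opposite directions, *Fabp4* by 1.95 ± 0.33 (edgeR adjusted p 0.00286) and *Fabp5* by -2.66 ± 0.32 (edgeR adjusted p 0.000774). *Fabp4* is also made by macrophages and endothelium, whose summed markers moved as given for *Cd36*. Within Elf4-/- the list's calls were *Vldlr*, the very low density lipoprotein receptor, at 2.18 (edgeR adjusted p 0.0414) and *Fabp5* at -2.11 (edgeR adjusted p 0.0398). The WT values of these were 1.35 for *Vldlr* (edgeR adjusted p 0.0743) and -3.20 for *Fabp5* (edgeR adjusted p 0.00281), and the interaction of *Vldlr* had an edgeR adjusted p of 0.732.

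Triglyceride synthesis genes (14 of 16 tested) had 2 higher and 1 lower. *Gpat3*, a glycerol-3-phosphate acyltransferase at the first step of the route, rose by 2.92 ± 0.36 (7.58-fold, edgeR adjusted p 0.000839), and it passed in Elf4-/- too at 2.51 (edgeR adjusted p 0.0276). Its level was low, at 1.48 ± 0.54 CPM in WT-Control and 15.1 ± 4.6 CPM in WT-EtOH. *Agpat5*, which acts at the next step, rose by 0.93 ± 0.20 (edgeR adjusted p 0.00785). *Dgat2*, at the last step, did not pass.

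Lipolysis genes (15 tested) had 5 higher and 2 lower, and triglyceride export genes (10 tested) had 2 higher and 1 lower. The carboxylesterase genes *Ces1g* and *Ces1d* rose on average by 1.83 ± 0.34 and 1.31 ± 0.26 (edgeR adjusted p 0.00448 and 0.00588). They belong to a cluster of close copies, so that reads could have been split between them. *Ces1d* was 194 ± 57 CPM in WT-Control, 1371 ± 555 CPM in WT-EtOH, 774 ± 161 CPM in Elf4-/--Control and 675 ± 219 CPM in Elf4-/--EtOH. Its interaction of -3.02 ± 0.53 had an unadjusted p of 0.000188 and an adjusted p of 0.202 by edgeR, and did not pass. For export, *Sar1b*, a GTPase for the secretion of large lipoproteins, rose by 0.66 ± 0.16 and the apolipoprotein gene *Apoa4* fell, at -0.86 ± 0.23 (edgeR adjusted p 0.0125 and 0.0199).

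Transcriptional regulators of droplet genes (14 tested) had 1 higher and 4 lower on average. *Pparg*, the nuclear receptor that drives fat storage, was 2.50 ± 0.94 CPM in WT-Control, 10.8 ± 1.4 CPM in WT-EtOH, 3.44 ± 1.25 CPM in Elf4-/--Control and 13.5 ± 4.9 CPM in Elf4-/--EtOH. It rose in both genotypes, by 2.11 in WT and by 2.0 in Elf4-/- (log2) (edgeR adjusted p 0.00915 and 0.0319). *Srebf1*, the gene of the lipogenic factor SREBP-1, fell on average, at -1.97 ± 0.39 (edgeR adjusted p 0.00590), from 294 ± 45 to 45.0 ± 7.1 CPM in WT. In Elf4-/- it was 325 ± 56 CPM with Control and 138 ± 129 CPM with EtOH (log2 difference -1.23, edgeR adjusted p 0.228). *Ppara*, the nuclear receptor of fatty acid oxidation, did not pass in WT (0.45 ± 0.27, edgeR adjusted p 0.260) or in Elf4-/- (0.11 ± 0.26, edgeR adjusted p 0.844).

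The mean of the centred log2 CPM of the 8 genes was -0.77 and -0.73 for the WT-Control libraries, 0.56 and 1.03 for WT-EtOH, -0.70 and -0.40 for Elf4-/--Control and 1.07 and -0.06 for Elf4-/--EtOH. Among 9391 other genes averaging 50 counts or more per library, those whose log2 CPM followed this mean most closely over the 8 libraries were *Gsta1* (Pearson r 0.996), *Ftl1* (0.991), *Gstm2-ps1* (0.987), *Gstm1* (0.986) and *Akip1* (0.985). The 3 glutathione transferase names belong to families of near copies, where reads can be split or shared. Among the members *Plin2* and *Cd36* were alike, with r of 0.95, while *G0s2* and *Pnpla2* were at -0.02 and *Dgat2* and *G0s2* at -0.67. All these r values come from the same 8 libraries in 4 groups and are given as descriptions.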

How the data were processed

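Total RNA of mouse liver in 8 libraries, 2 per group, was analysed. Per the labels and the study's methods, RNA was isolated by Trizol and read in pairs. The authors then aligned the reads with HISAT2 to mm10, used SAMtools for sorting and HTSeq for counting, and tested with DESeq2. The deposited values are raw counts per gene symbol, with 1 column per library. Versions, annotation, strand setting and the handling of reads shared by genes were not given in the sources used here. Where the sources do not tie libraries to separate mice, the p-values measure only the spread between these libraries.

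The table held 19267 genes, and 968 blank lines were left out. Genes with low counts were removed with filterByExpr by group (minimum count 10, minimum total 15), which left 13993. CPM took TMM scaling into account, and a prior count of 2 was added for log2 CPM. The model had 4 groups and held all libraries, in edgeR 4.0.16 under R 4.3.3 (common biological coefficient of variation 22.7%). Diet within and averaged over genotypes, genotype within and averaged over diets, and the interaction were tested by the quasi-likelihood test with a threshold of 0.05 on p-values adjusted by Benjamini-Hochberg across the 13993 genes. An interval is the 95% interval of the fitted difference. The procedure was tested on simulated counts, drawn with the spread of each gene fitted here and kept the same in all 4 groups. Such counts lack the wider spread of Elf4-/--EtOH, so that test does not show how well calls hold in these data. Exon length and coordinates came from GENCODE M21 on GRCm38 (mm10), in which 18748 symbols were found, and promoters came from RefSeq on GRCm38.p6.

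The members and the lists were chosen with earlier results of these data known. Other genes were named as the 2 past the threshold with the largest absolute log2 fold change in each list for the average diet effect (none passed for the average genotype difference), and as the 5 most correlated with the members' mean. Alternatives were DESeq2 1.42.0, its size factors in edgeR, library totals alone, no filter, a mean of at least 50 counts, only the 4 libraries compared, the replicate number as a block, and each library left out. A crossed block and the value of *Pnpla3* with no filter were added after seeing the data.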

Additional observations from a re-analysis of the deposited data

How the results depend on the processing

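Of the 12 calls of members, all kept their direction in all 180 alternative values, and 152 of these stayed past the threshold. With 1 library left out, the number of members called ran from 2 to 5 for diet in WT, from 0 to 5 for diet in Elf4-/- and from 3 to 7 for the average diet effect, and stayed at 0 for genotype and the interaction. The share of all genes called also changed with the library left out, though not always in step with these counts. For each diet comparison it was lowest in a fit with the lowest member count and highest in a fit with the highest. The count of 7 came without Elf4-/--EtOH replicate 2, where that share was also the largest. The calls over all genes thus shifted as well, and the cause of the shifts was not tested. With only the 4 libraries compared, 1 member was called for diet in Elf4-/-, beside 0.302% of all genes. Scaling by library totals alone moved the median of all genes by 0.43 in WT, -0.03 in Elf4-/- and 0.20 on average. The shift was -0.23 for genotype under EtOH, 0.23 under Control, 0.00 averaged over diets and -0.46 in the interaction. The 5 calls in WT stayed, beside 29% of all genes. These were 3422 genes higher and 634 lower, against 1518 and 1507 in the main fit, so the upward shift itself favours higher calls. The values of *Cidec* (-0.21) and *Pnpla2* (-0.25) under EtOH between genotypes changed sign with this scaling. So did the interactions of *Cd36* (-0.31) and *Dgat2* (-0.039). *Pnpla2* between genotypes under EtOH also changed sign with a mean of at least 50 counts (-0.018).

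Whether replicate numbers pair the libraries is not stated in the sources used here. The correlation of deviations between same-numbered libraries ran from -0.11 to 0.06 over the 6 pairs of groups. These values show no shared deviation over all genes, but with 2 libraries per group they cannot exclude pairing. With the replicate block 4 members were called for diet in WT (*Plin4* was lost), 2 for diet in Elf4-/- and 5 on average. Over all genes 18.9%, 1.72% and 26.1% passed in these comparisons. The values between genotypes under EtOH of *Cidec* (-0.019) and *Pnpla2* (-0.057) changed sign with that block. With the crossed block 5 members were called for diet in WT, beside 20.9% of all genes.

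Values of members that were not called changed sign in 38 cases with 1 library left out. For the average genotype difference the log2 values over these ran from -1.12 to 0.38 for *Plin4*, -0.30 to 0.41 for *Plin5*, -0.26 to 0.51 for *Cidec*, -0.15 to 0.51 for *Cd36* and -0.48 to 0.39 for *Pnpla2*. For the genotype difference under EtOH the log2 values over these ran from -2.64 to 0.36 for *Plin4*, -1.18 to 0.25 for *Plin5*, -0.91 to 0.62 for *Cidec*, -0.40 to 0.92 for *Cd36* and -1.12 to 0.62 for *Pnpla2*. For the genotype difference under Control the log2 values over these ran from -0.21 to 0.87 for *Plin4*, -0.048 to 1.06 for *Plin5*, -0.14 to 0.37 for *Cd36*, -0.17 to 0.42 for *Pnpla2* and -0.12 to 0.47 for *Dgat2*. For the diet effect in Elf4-/- the log2 values over these ran from -0.19 to 2.60 for *Plin4*, -0.45 to 1.07 for *Cidec*, -0.76 to 0.97 for *Pnpla2* and -0.37 to 0.22 for *Dgat2*. For the interaction the log2 values over these ran from -1.30 to 0.23 for *Cidec*, -0.49 to 0.83 for *Cd36* and -1.27 to 0.47 for *Pnpla2*. For the average diet effect the log2 values over these ran from -0.13 to 0.74 for *Pnpla2*. The cause was not tested. Depth limits *Cidec* and *Pnpla3* most.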
